A study of Mus musculus with 4 samples.

Results

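Type 1 conventional dendritic cells (cDC1) were described in CD45+ cells sorted from mouse skin and skin tumors and counted as unique molecular identifiers (UMIs), in which each UMI stands for a captured RNA molecule. A cell was taken as a cDC1 when it held at least 2 UMIs of Xcr1 and Clec9a together and at least 5 UMIs of the MHC class II gene H2-Ab1. It also had to hold at most 3 UMIs of the maturation genes Ccr7 and Fscn1, at most 2 of the T cell gene Cd3e, at most 10 of the macrophage genes C1qa, C1qb and C1qc, and at most 2 of the cell cycle genes Top2a and Mki67. The cells were thus chosen by the measured UMIs of these 11 genes, whose levels are given as a description only. The gate held 127 of the 13124 cells with at least 1000 UMIs and at most 15% mitochondrial UMIs. Of these cDC1, 26 and 31 came from control skin replicates 1 and 2, and 62 and 8 from skin tumor replicates 1 and 2.

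The 2 control skins were normal skin of C57/BL6 mice that received no tumor cells. The 2 tumors grew in the flank of C57/BL6 hosts after injection of the 2323 cell line, which was derived from a tumor of the K14rtTA/tetOCre mouse model. The methods give the injected mice as young adults of both sexes, while Xist, which is expressed from the inactive X of female cells, had no UMI in cDC1 of any of the 4 libraries. The labels name no drug, and each sample gave 1 droplet library read from the 3′ end of the RNA. The tumors thus stand for a graft of 1 cell line. Tumors excised from injected mice were compared with skin of mice without an injection, so the tissues differ as well.

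Dendritic cells take up antigen and present it to T cells. The cDC1 lineage depends on the transcription factors Irf8 and Batf3, senses dead cells through Clec9a, carries the chemokine receptor Xcr1, and is known for cross-presentation, in which antigen from other cells is shown on MHC class I to CD8+ T cells. In skin, dermal cDC1 share langerin (Cd207) with Langerhans cells, the dendritic-like cells of the epidermis.

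As deposited, control skin replicates 1 and 2 had 3499 and 3862 cells and skin tumor replicates 1 and 2 had 5176 and 2258, of which 3114, 3190, 4813 and 2007 were kept. The cDC1 were deep, with a median of 23325 and 22206 UMIs per cell in the controls and 24272 and 19165 in the tumors. Summed over cells, cDC1 gave 560199 and 645709 UMIs in the controls and 1545326 and 162193 in the tumors, so skin tumor replicate 2 was the thinnest library. Any pair of libraries shared 1 to 5 kept barcodes, and no barcode of a cDC1 was shared. All levels below are CPM, the UMIs of a gene divided by all UMIs of the cells named and scaled to a sum of 1000000.

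The gate carried the genes of its label that it did not use. Irf8, which drives cDC1 development, stood at 968 and 793 CPM in control cDC1 and at 1108 and 906 in tumor cDC1. In cDC2, the type 2 dendritic cells gated by Mgl2, Cd209a or Clec10a, the Irf8 level was 48.6 and 27.5 in controls and 172 and 201 in tumors. Wdfy4, a protein needed for cross-presentation, stood at 575, 488, 889 and 432 in cDC1 and at 28.5, 31.1, 313 and 78.6 in cDC2. Naaa, a lysosomal amidase listed as a cDC1 gene, stood at 673, 602, 940 and 728 in cDC1 and at 198, 221, 252 and 210 in cDC2. Irf8, Wdfy4 and Naaa were thus higher in cDC1 than in cDC2 in every library.

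In each library, cells at the edge of the gate were lower in Irf8 than cells with 3 to 9 UMIs of Xcr1 and Clec9a. Cells with exactly 2 UMIs of Xcr1 and Clec9a, just inside, numbered 5, 2, 13 and 2, and their Irf8 level was 342, 656, 313 and 404 CPM. Cells with 1 such UMI that met every other limit, just outside, numbered 10, 17, 40 and 6, with Irf8 at 435, 196, 235 and 60.4. With 3 to 9 UMIs, Irf8 stood at 1113, 744, 919 and 765. Wdfy4 had no such order, at 427, 739, 169 and 372 in cells with exactly 2 UMIs and at 492, 398, 674 and 283 in cells with 3 to 9. The limit on complement genes kept out 9 and 15 cells with 2 or more Xcr1 and Clec9a UMIs in the controls and 155 and 37 in the tumors.

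The gate was mixed in the tumors. Cells with UMIs of Clec9a and none of Xcr1 were 2 of 26 (7.69%) and 3 of 31 (9.68%) in the controls, but 23 of 62 (37.1%) and 4 of 8 (50%) in the tumors. In skin tumor replicate 1, the 23 Clec9a-only cells had lower levels of cDC1 genes than the 39 cells with both receptors, with Irf8 at 678 against 1261, Naaa at 530 against 1086 and Wdfy4 at 251 against 1116 CPM. Their Wdfy4 level lay below the 313 of cDC2 in that library, which goes against the label of the gate.

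Summed over these cells, genes known from monocytes, plasmacytoid dendritic cells and cDC2 stood higher than in the cells with both receptors. Plac8 stood at 724 in Clec9a-only cells and 345 in cells with both receptors, the monocyte marker Ly6c2 at 340 and 50, and Zeb2, a transcription factor of monocytes and cDC2, at 747 and 218. Siglech, a receptor of plasmacytoid dendritic cells, was at 264 in the Clec9a-only cells and had no UMI in the 1139481 UMIs of the cells with both, and the cDC2 lectin Cd209a stood at 153 and 40.4. Genes of plasmacytoid dendritic cells and B cells sat in 4 of the 23 cells, with 130, 134, 86 and 38 UMIs together, while the other cells held at most 1. These 4 cells also held 55, 38, 30 and 17 Irf8 UMIs, so much of the Irf8 level of the Clec9a-only cells came from them. In skin tumor replicate 2, the 4 Clec9a-only cells had Wdfy4 at 186 against 594, Plac8 at 930 against 30.7 and Zeb2 at 1070 against 71.6. The tumors thus held a larger share of Clec9a-only cells. By genes of other cells the order was not the same. Cells with over 2 UMIs of plasmacytoid dendritic cell or B cell genes were 1 of 26 and 2 of 31 in the controls against 4 of 62 and 0 of 8 in the tumors. Those with over 2 UMIs of cDC2 genes were 6 of 26 and 8 of 31 against 22 of 62 and 1 of 8.

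**Figure D1:**
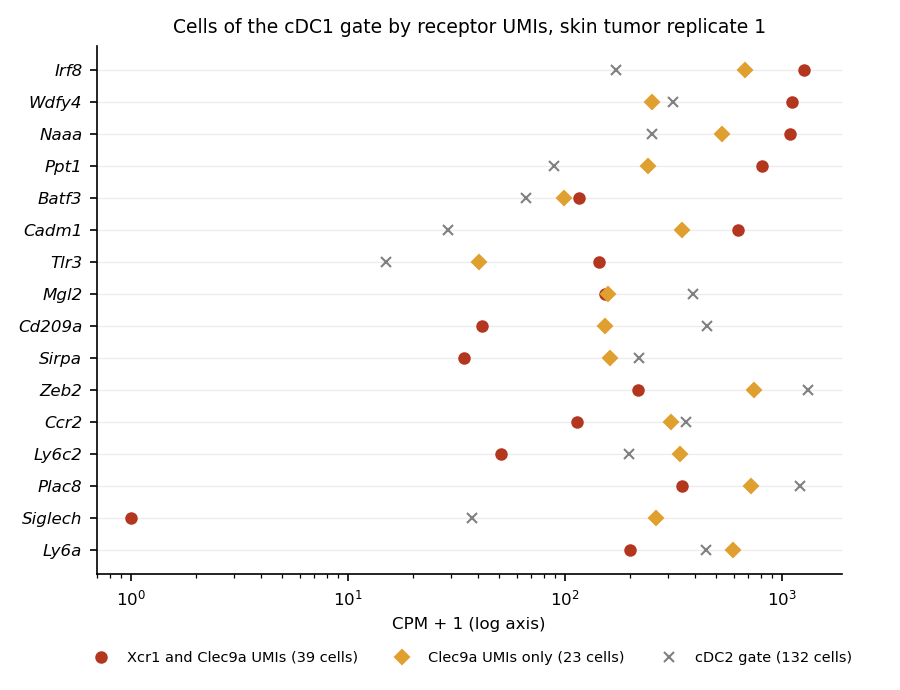
Levels in CPM plus 1 (log axis) of cDC1 genes and of genes known from other myeloid cells in skin tumor replicate 1, for the 39 cells of the gate with both receptors, the 23 cells with Clec9a only and the cDC2 gate. The Clec9a-only cells sit nearer to cDC2 for Wdfy4 (251 against 313) and Zeb2 than the cells with both receptors (Wdfy4 at 1116).

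The share of cDC1 among immune cells did not differ between the groups beyond their spread. It was 0.835% in control skin replicate 1 (95% Clopper-Pearson interval 0.546% to 1.22%) and 0.972% in control skin replicate 2 (0.661% to 1.38%). It was 1.29% in skin tumor replicate 1 (0.989% to 1.65%) and 0.399% in skin tumor replicate 2 (0.172% to 0.784%). The tumors thus lay on either side of the controls, with group means of 0.903% ± 0.097 in control skin and 0.843% ± 0.63 in skin tumor (SD, n = 2 each; two-sided exact permutation p = 1, the smallest possible with 2 against 2 being 0.33).

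Among all gated dendritic cells (cDC1, cDC2 and mature dendritic cells), cDC1 made up 24.3% and 23.3% in the controls and 27.4% and 10.5% in the tumors. The tumors again lay on either side of the controls (23.8% ± 0.70 against 19.0% ± 12, SD, n = 2 each, exact permutation p = 1). The intervals cover counting error only, and the sort on CD45 sets the total of which these are shares.

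**Figure D2:**
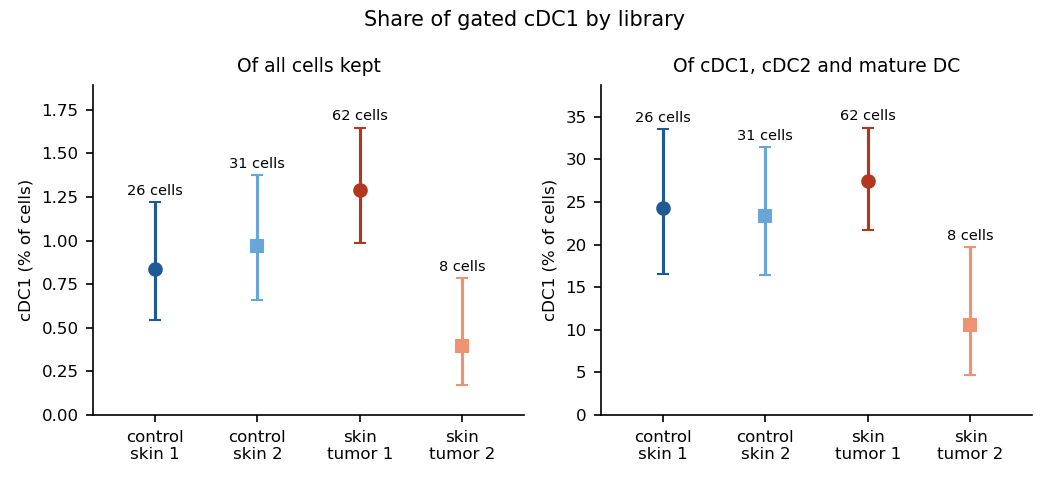
Share of gated cDC1 in each library, in percent of kept cells (left) and of gated dendritic cells (right), with 95% Clopper-Pearson intervals that cover counting error. The tumor libraries, at 1.29% and 0.399% of kept cells, lie above and below the control libraries at 0.835% and 0.972%.

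For expression, UMIs were summed over the cDC1 of each library and skin tumor was compared with control skin for 6290 genes in edgeR (quasi-likelihood test, p-values adjusted by Benjamini-Hochberg). At an adjusted p under 0.05, 45 genes (0.715% of those tested) were higher in tumor cDC1 and 75 (1.19%) were lower, and 1102 genes had an unadjusted p under 0.05. In each of the 120 called genes the 2 tumors lay on the same side of both controls, which adds no evidence beyond the calls. The share of all 6290 tested genes whose groups stood apart in this way is not given here. This holds also where it is said of single genes below. The median log2 fold change over all tested genes was -0.00039. With no scaling factors between libraries the split turned to 66 higher and 55 lower, with the median of all genes at 0.23. The number of calls depended on single libraries, with 33 without control skin replicate 2, 333 without control skin replicate 1, 248 without skin tumor replicate 1 and 659 without skin tumor replicate 2. Which cells were counted also mattered. Of 36 called genes chosen by the naming rule, counted over those that could be tested in each setting, 4 of 30 lost their call when both receptors were required, 22 of 33 when cells holding over 2 UMIs of cDC2 genes were left out, 8 of 35 when cells holding T cell genes were left out, and 6 of 23 without cells holding Epcam. The call was also lost for 18 of 30 when libraries were thinned to the smallest sum, 7 of 36 with no limits on other genes in the gate and 20 of 36 without control skin replicate 2.

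Of the interferon response genes tested, 12 of 48 were higher in tumor cDC1 and none was lower. Interferons are antiviral cytokines, and their target genes encode sensors of foreign RNA and DNA, GTPases and other antiviral proteins. Of 63 listed genes, 62 were in the files and 48 passed the filter on low counts. Of these, 36 did not pass the test, and 37 were at an unadjusted p under 0.05; DESeq2 also called 12 higher and none lower. Of the 48, 46 had a positive log2 fold change, with a median of 2.11 beside -0.00039 over all tested genes. Summed over the list, the level was 2346 and 1820 CPM in control cDC1 and 7619 and 6276 in tumor cDC1.

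Among the genes called, Ly6a, an interferon-inducible surface protein also known as Sca-1 (GRCm38, chromosome 15, 74994877 to 74998031, minus strand), stood at 14.3 and 17.0 CPM in the controls and at 303 and 314 in the tumors. Its levels did not overlap between groups, and its log2 fold change was 4.07 ± 0.39 (SE; edgeR adjusted p = 0.00653). Irf7, a transcription factor that amplifies the response (chromosome 7, 141262706 to 141266481, minus strand), rose from 10.7 and 17.0 to 209 and 117, with a log2 fold change of 3.37 ± 0.48 (adjusted p = 0.0178). Each tumor lay above both controls in both genes. Without control skin replicate 2, Ly6a was still called and Irf7 was not (3.69, adjusted p = 0.0802). With both receptors required, Ly6a was not called (2.89, adjusted p = 0.063).

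The RNA sensor Ifih1 stood at 5.36 and 9.29 in the controls and at 120 and 74.0 in the tumors (log2 fold change 3.54 ± 0.52, adjusted p = 0.0193). Isg15, a ubiquitin-like modifier, stood at 30.3 and 7.74 against 133 and 456 (3.67 ± 0.74, adjusted p = 0.0455), and its tumors differed widely from each other. The guanylate-binding protein Gbp2 stood at 12.5 and 3.10 against 108 and 117 (3.64 ± 0.58, adjusted p = 0.0239). For all of these the groups stood apart. Without control skin replicate 2, the adjusted p was 0.0791 for Ifih1, 0.273 for Isg15 and 0.134 for Gbp2. Over all alternatives the call was lost in 5 of 21 for Ifih1, 8 of 21 for Isg15 and 4 of 20 for Gbp2, among them, for Ifih1 and Isg15, the gate with both receptors required (2.29 and 2.15, adjusted p = 0.0876 and 0.116).

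Gbp7 had 1 UMI over both controls and 99 over both tumors, a ratio of 69.9 with a counting interval of 12.3 to 2789. Oasl2, of the oligoadenylate synthetase-like proteins, had 3 and 128 UMIs, a ratio of 30.1 (10.1 to 148). The other called members were Phf11d, Phf11b, Ifi204, Ifit2 and Rsad2, with log2 fold changes from 2.29 to 5.54. Oasl2 and Ifit2 were not called without control skin replicate 2 (adjusted p = 0.153 and 0.159).

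Ly6a and Irf7 were also high in other tumor cells, with Ly6a at 447 and 175 in tumor cDC2 and at 322 and 383 in tumor T cells, against 17.5 to 46.2 in those gates in the controls. The interferon calls in cDC1 depended on which cells were counted. With cells that held both receptors, 3 of 32 tested members were called (median log2 fold change 1.51), and with cells holding over 2 UMIs of cDC2 genes left out, 0 of 34 were called by edgeR (median 1.77, with 24 at an unadjusted p under 0.05). Ly6a in cells with both receptors was 16.4 and 14.8 in the controls against 198 and 30.7 in the tumors, and Irf7 was 12.3 and 18.1 against 204 and 10.2, so that Irf7 in skin tumor replicate 2, with 4 such cells, lay below both controls. The number of members called, like that of all genes, also depended on single libraries. Their median log2 fold change was 2.40 without skin tumor replicate 2, 2.30 without control skin replicate 1, 2.08 without control skin replicate 2 and 1.36 without skin tumor replicate 1.

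**Figure D3:**
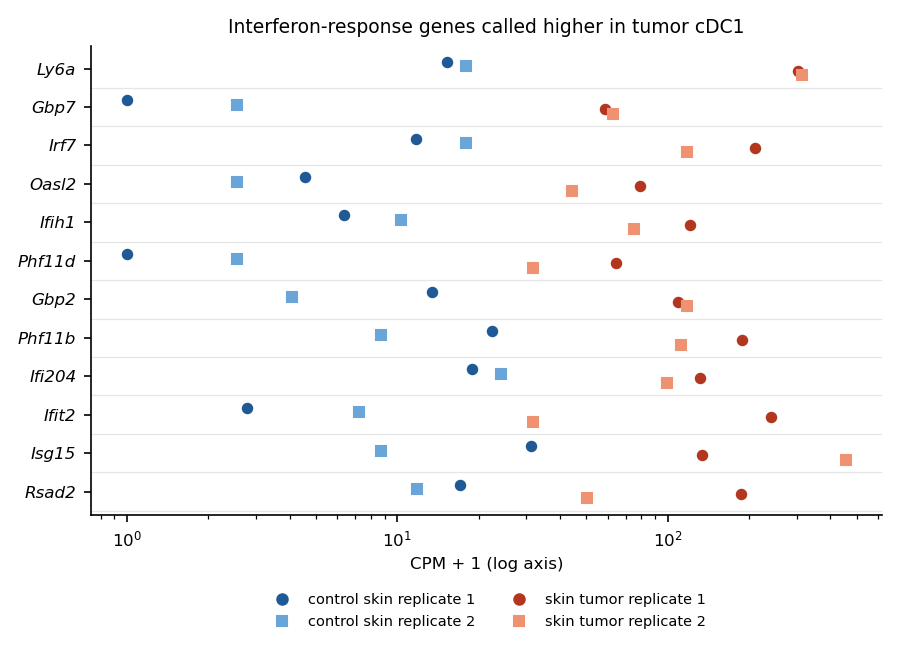
Levels in CPM plus 1 (log axis) of the 12 interferon-response genes called higher in tumor cDC1, with a point per library. Both tumor libraries sit above both control libraries for each gene, and the tumors lie apart from each other for Ifit2 (239 and 30.8) and Isg15 (133 and 456), among others.

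Promoter sequence was read for the called interferon genes, since factors of the Irf and Stat families bind a repeat of GAAA known as the interferon-stimulated response element. RefSeq promoter windows of GRCm38.p6, from 250 bases before to 50 after the start, were found for 10 of the 12 genes. The letters GAAANNGAAA were searched on both strands, so that a match on the minus strand reads TTTCNNTTTC and matches may overlap. They were present for 6 of the 10 called genes (60%) and for 15 of 25 interferon genes that were tested and not called (60%). Over all 27025 genes in the promoter table the share was 3.99%, and it was 5.17% over 58 genes called lower in tumor cDC1. The 150 bases before the start, 5′ to 3′ on the strand of the gene, are shown for the 5 called genes with a match there, with the match in capitals, at chr3:142530186-142530335 (plus strand) for Gbp7, chr3:142620513-142620662 (plus) for Gbp2, chr14:59341331-59341480 (minus) for Phf11b, chr4:156200819-156200968 (minus) for Isg15 and chr12:26456453-26456602 (minus) for Rsad2.
Gbp7: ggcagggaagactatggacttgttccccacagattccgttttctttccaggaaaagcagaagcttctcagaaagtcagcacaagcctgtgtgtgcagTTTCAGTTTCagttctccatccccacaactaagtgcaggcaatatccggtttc
Gbp2: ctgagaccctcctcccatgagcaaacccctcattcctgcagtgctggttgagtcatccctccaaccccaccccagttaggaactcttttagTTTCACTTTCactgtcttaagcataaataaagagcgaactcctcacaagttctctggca
Phf11b: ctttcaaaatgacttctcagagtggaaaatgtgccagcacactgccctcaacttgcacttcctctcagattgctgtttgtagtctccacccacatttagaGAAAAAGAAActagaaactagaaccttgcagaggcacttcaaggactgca
Isg15: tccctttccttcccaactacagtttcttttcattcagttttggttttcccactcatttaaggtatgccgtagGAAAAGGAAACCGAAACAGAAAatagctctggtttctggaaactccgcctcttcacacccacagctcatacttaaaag
Rsad2: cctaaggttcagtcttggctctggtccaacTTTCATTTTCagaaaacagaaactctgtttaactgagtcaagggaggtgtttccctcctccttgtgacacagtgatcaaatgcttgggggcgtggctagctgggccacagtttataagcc
In Isg15 the capitals cover 3 overlapping matches, and the match nearest to its gene's start lies 41 bases before it, in Phf11b. Gbp7 and Gbp2 hold the motif on the minus strand at 44 and 50 bases before the start, and Rsad2 at 111. Ifih1 has a match only after its start, and the windows of Irf7, Oasl2, Phf11d and Ifit2 hold none, which says only that these letters are not in them.

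Named genes outside the interferon list that were higher in tumor cDC1 encode a checkpoint ligand, a peptidase, anti-apoptotic proteins and a receptor for dead cells. Pdcd1lg2, which encodes PD-L2, a ligand of the inhibitory receptor PD-1, stood at 10.7 and 7.74 CPM in the controls and at 69.2 and 240 in the tumors (log2 fold change 3.70 ± 0.71, edgeR adjusted p = 0.0403). Its tumor levels lay apart from the controls but differed widely from each other. Cd274, the gene of PD-L1, stood at 193 and 48.0 against 245 and 580 and did not pass the test (1.52, adjusted p = 0.26).

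Dpp4, a surface peptidase that trims chemokines, rose from 30.3 and 9.29 to 214 and 117 (2.93 ± 0.56, adjusted p = 0.0403), and no control reached a tumor. Frmd4b, a scaffold protein, stood at 5.36 and 1.55 against 164 and 43.2 (4.84 ± 0.80, adjusted p = 0.0259). The cyclin gene Ccnd2 stood at 16.1 and 3.10 against 171 and 61.7 (3.53 ± 0.70, adjusted p = 0.0445). The groups did not overlap for these genes. Without control skin replicate 2 none of these 4 passed (adjusted p = 0.237 for Pdcd1lg2, 0.282 for Dpp4, 0.159 for Frmd4b and 0.284 for Ccnd2), and without skin tumor replicate 1 Ccnd2 did not (0.0785).

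Bcl2a1a and Bcl2a1b, anti-apoptotic genes, had log2 fold changes of 4.86 ± 0.61 and 4.01 ± 0.65 (adjusted p = 0.0127 and 0.0246). They are near-identical copies between which reads can be split, so the level of each is uncertain. Ifitm1, a membrane protein induced by interferon that was not on the list, had 1 UMI over the controls and 208 over the tumors, a ratio of 147 (counting interval 26.1 to 5830).

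The receptor tyrosine kinase Axl, which binds dead cells, had 2 and 64 UMIs, a ratio of 22.6 (6.01 to 191). Cd8a, carried by lymphoid organ cDC1 and by T cells, had 1 and 68 UMIs, a ratio of 48.0 (8.33 to 1924), while the T cell gate stood at 65.9, 22.9, 170 and 63.2 CPM. How much RNA of T cells added to Cd8a in cDC1 was not tested. Leaving out cells with over 2 UMIs of cDC2 genes ended the call of Pdcd1lg2, Dpp4, Frmd4b, Ccnd2, Bcl2a1b, Ifitm1 and Cd8a, but kept that of Bcl2a1a. With no limits on other genes in the gate Ccnd2 (0.90), Bcl2a1b (1.34) and Cd8a (1.79) were not called (adjusted p = 0.159, 0.135 and 0.177). Counting only cells with both receptors ended the call of Pdcd1lg2 (2.55, adjusted p = 0.0732). Without control skin replicate 2, Bcl2a1b, Axl and Cd8a were not called (adjusted p = 0.125, 0.128 and 0.159).

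Chemokines of cDC1 were measured with wide spread. Cxcl9, which draws T cells through Cxcr3, was among the abundant chemokines at 653 and 115 CPM in control cDC1 and 1026 and 1776 in tumor cDC1 (log2 fold change 1.64, adjusted p = 0.252). A Cxcl9 UMI was found in 5 of 26 (19.2%) and 5 of 31 (16.1%) cDC1 of the controls and in 36 of 62 (58.1%) and 5 of 8 (62.5%) of the tumors, and thinned to 5000 UMIs per cell in 8% and 10% against 41.0% and 37.5%. Both tumors were thus above both controls. In T cells the shares were 0.425% and 0.478% in the controls and 10.2% and 8.26% in the tumors, at a median of 9878, 10195.5, 7461 and 7725 UMIs per cell. Outside skin tumor replicate 1, 1 or 2 cells held most of the UMIs, with 226 and 137 of 366 UMIs in 2 cells of control skin replicate 1, 63 of 74 in 1 cell of control skin replicate 2, and 173 and 111 of 288 in 2 cells of skin tumor replicate 2. In skin tumor replicate 1 the highest cell held 538 of 1586 UMIs. The controls differed widely from each other, and without control skin replicate 1 the log2 fold change was 3.34 (adjusted p = 8.1e-06). Cxcl10 stood at 30.3 and 7.74 against 99.0 and 30.8 (1.77, adjusted p = 0.223), so that a tumor and a control were at nearly the same level. It was called in 4 of 19 alternatives, among them without control skin replicate 1 (2.94, adjusted p = 0.0117) and without skin tumor replicate 2 (2.15, adjusted p = 0.00023). Ccl4, which attracts T cells and myeloid cells, was the chemokine called of 8 tested, at 26.8 and 49.6 against 270 and 197 (2.41 ± 0.41, adjusted p = 0.0265), but with at least 4 UMIs of Xcr1 and Clec9a per cell its log2 fold change was 0.67 (adjusted p = 0.577), and without control skin replicate 2 it was not called (adjusted p = 0.103).

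Langerin (Cd207; chromosome 6, 83671215 to 83677857, minus strand) was nearly lost in tumor cDC1. It stood at 1287 and 856 CPM in the controls and at 1.94 and 0 in the tumors. The 1274 control UMIs against 3 tumor UMIs gave a ratio of 601 (counting interval 205 to 2920), with a fitted log2 fold change of -9.36 ± 0.61 (edgeR adjusted p = 0.000502). The call held under each of 21 alternatives tried for this gene. Cd207 was lower in the tumors in other gates too. It stood at 2332 and 999 against 2.12 and 13 in macrophages (-7.97, adjusted p = 0.0195), and the tumor effect in cDC1 differed from that by -0.48 ± 0.80 (adjusted p = 0.94). In mature dendritic cells it stood at 1712 and 2511 against 0 and 0, and in cDC2, whose gate limits Cd207, at 22.0 and 21.5 against 0 and 1.12 (-5.89, adjusted p = 0.0235).

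A Cd207 UMI was found in 88.5% and 87.1% of control cDC1 and in 1.61% of the cells of skin tumor replicate 1. In skin tumor replicate 2 it was found in 0 of 8 cells. T cells, which should lack the gene, had a Cd207 UMI in 23.4% and 19.6% of cells in the controls, at a median of 9878 and 10195.5 UMIs per cell. Thinned to 5000 UMIs per cell, which left out 1 cDC1 in each control, the shares were 64.0% and 80.0% in cDC1 and 13.5% and 8.41% in T cells.

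Control skin held 524 and 431 cells of a Langerhans gate, which required at least 3 UMIs of Cd207 with Epcam, while the tumors held 1 and 6. Mfge8, a secreted protein that bridges phagocytes and dying cells, was abundant in Langerhans cells at 1111 and 1208 CPM in the controls and stood at 78.5 and 15.5 in control cDC1. The ratio of Cd207 to Mfge8 UMIs was 16.4 and 55.3 in control cDC1, 3.81 and 2.77 in the Langerhans gate and 1.14 and 1.10 in T cells, with 44 and 10 Mfge8 UMIs behind the first pair. The ratio of Cd207 to Epcam was 6.68 and 5.70 in control cDC1 against 10.4 and 8.89 in the Langerhans gate, and that of Cldn1 to Cd207 was 0.165 and 0.329 against 0.170 and 0.207. The ratios of control cDC1 thus lay far from the Langerhans gate for Mfge8 and nearer to it for Epcam and Cldn1. The part of Langerhans RNA in the Cd207 level of cDC1 was not tested.

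The adhesion genes Epcam and Cldn1 fell as well. Epcam, a cell adhesion molecule of epithelia and Langerhans cells, stood at 193 and 150 in control cDC1 and at 7.12 and 12.3 in tumor cDC1 (-4.62 ± 0.49, adjusted p = 0.00653). The tight junction gene Cldn1 stood at 212 and 282 against 20.1 and 24.7 (-3.75 ± 0.41, adjusted p = 0.00653). For each, both controls lay far above both tumors. Cdh1, the gene of E-cadherin, stood at 69.6 and 71.2 against 23.9 and 0 and did not pass (-2.13, adjusted p = 0.12).

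Of 8 Langerhans markers, 6 were tested, and Cd207, Epcam and Cldn1 were lower (3 of 6, median log2 fold change -2.94). Summed, the list stood at 2196 and 1702 CPM in the controls and 356 and 425 in the tumors, led by Cd207 in the controls and by Cd24a in the tumors. When cells with an Epcam UMI were left out, 10, 10, 57 and 7 cDC1 remained, Cd207 was still called (-8.13) and Cldn1 was not (-2.38, adjusted p = 0.0517). The part of Langerhans RNA in the fall of Epcam and Cldn1 was likewise not tested.

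**Figure D4:**
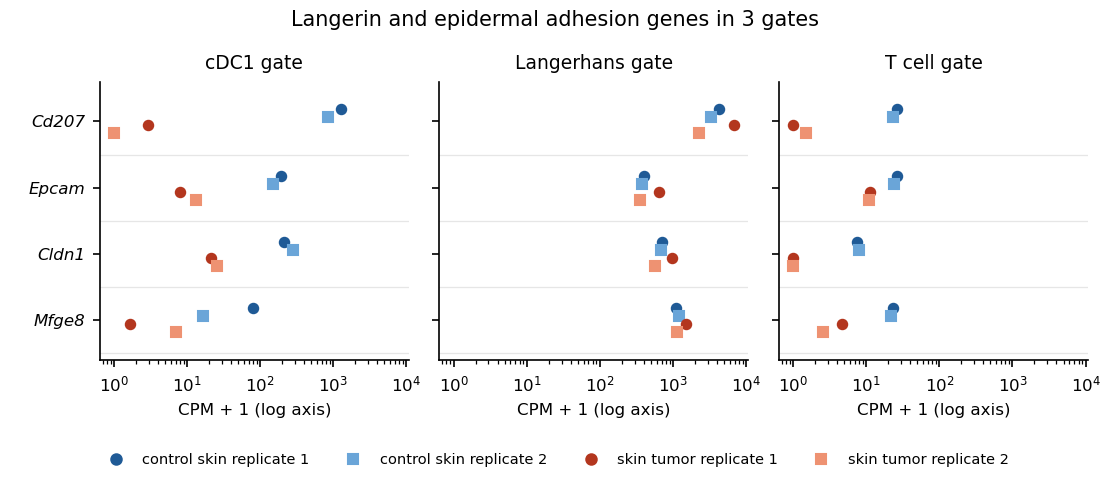
Levels in CPM plus 1 (log axis) of langerin and epidermal adhesion genes per library in the cDC1, Langerhans and T cell gates. Cd207 sits at 1287 and 856 in control cDC1 and at 1.94 and 0 in tumor cDC1, and Mfge8 in control cDC1 (78.5 and 15.5) sits far below the Langerhans gate (1111 and 1208).

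Other genes lower in tumor cDC1 were of several kinds. Hepacam2, listed with cDC1 identity, stood at 132 and 190 CPM in the controls and at 31.7 and 30.8 in the tumors (-2.57 ± 0.40, edgeR adjusted p = 0.0223). In the Langerhans gate of the controls it stood at 8.09 and 7.60 and in T cells at 0.19 and 0.11. In cDC2 it stood at 31.1 and 20.3 in the controls against 9.01 and 7.86 in the tumors, and in macrophages at 7.13 and 6.10 against 0.952 and 1.7. Hepacam2 was thus highest in cDC1 among these gates in the controls, and its groups in cDC1 did not overlap. Its tumor effect in cDC1 differed from those in cDC2 and macrophages by -0.75 and -0.010, and neither difference was called. Without control skin replicate 2 it was not called (-2.33), nor with cells holding Epcam or cDC2 genes left out (adjusted p = 0.0511 and 0.0716). Its log2 fold change lay between -2.85 and -2.00 over all 21 alternatives.

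Timd4, a receptor for phosphatidylserine on dying cells, fell from 87.5 and 105 to 7.77 and 6.17 (-3.87 ± 0.48, adjusted p = 0.0127). Its call was lost in 1 of 20 alternatives. Timd4 fell in macrophages too, from 78.8 and 24.7 to 0.33 and 1.58 (-6.09, edgeR adjusted p = 0.0256), and stood at 18.8 and 13.8 against 10.0 and 21.3 in cDC2. Gpr183, a receptor for oxysterols that guides dendritic cells in tissue, fell from 327 and 310 to 79.6 and 12.3 (-2.68 ± 0.53, adjusted p = 0.044), and its call was lost with no scaling factors (adjusted p = 0.0573), without control skin replicate 2 (0.157), and with cells holding cDC2 or T cell genes left out. Il13ra1, a chain of the receptors for Il4 and Il13, fell from 111 and 135 to 15.5 and 12.3 (-3.25 ± 0.43, adjusted p = 0.0144). All 3 were lower in each tumor than in each control.

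The calcium channel subunit gene Cacnb2 stood at 298 and 369 against 30.4 and 24.7 (-3.74 ± 0.38, adjusted p = 0.00653), the cytoskeletal linker Dst at 246 and 475 against 25.9 and 6.17 (-4.29 ± 0.54, adjusted p = 0.0127), and Ank2, an ankyrin, at 121 and 277 against 3.24 and 0 (-6.26 ± 0.70, adjusted p = 0.00656). Cacnb2 was higher still in control Langerhans cells, at 1481 and 1216, while Ank2 there stood at 125 and 108. Lyz1 also fell (-4.87 ± 0.53, adjusted p = 0.00653), but reads may be split with its close copy Lyz2, which did not pass the test. With no limits on other genes in the gate Lyz1 was not called (-0.70, adjusted p = 0.429), nor when thinned (-3.66, adjusted p = 0.0622). Tmco3 and Zmynd15 were called with log2 fold changes of -3.29 and -2.74, and both calls were lost with cells holding cDC2 genes left out (adjusted p = 0.0618 and 0.0925).

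Pcdh7, a protocadherin, had 234 UMIs in control cDC1 and none in tumor cDC1, at least 110-fold lower against a floor of 3 counts over the tumors. Its control levels were 339 and 68.1, however, while the T cell gate stood at 165 and 187 in the same libraries and the Langerhans gate at 1232 and 1064. In control skin replicate 2 it thus lay below the level in T cells, and no change of expression in cDC1 is read from it.

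Lmna, a nuclear lamina gene, and Vim, an intermediate filament gene named here after its values were seen, were lower in tumor cDC1 and stood lower in other tumor gates too. Lmna stood at 744 and 917 in control cDC1 and at 84.1 and 160 in tumor cDC1 (-3.08 ± 0.41, adjusted p = 0.0144). In T cells its level was 533 and 618 against 51.3 and 94.0, and in cDC2 692 and 657 against 49.6 and 131. Vim stood at 4041 and 4514 in control cDC1 and at 894 and 1529 in tumor cDC1 (-2.04 ± 0.36, adjusted p = 0.0299), and at 1392 and 1456 against 552 and 621 in T cells. For both genes, both controls were above both tumors in the cDC1, cDC2, macrophage and T cell gates.

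The immediate early genes Fosb and Klf4, induced by stress and by tissue digestion, were lower in tumor cDC1 as well. Fosb stood at 164 and 316 against 31.1 and 67.8 (-2.72 ± 0.51, adjusted p = 0.0377) and Klf4 at 296 and 209 against 35.6 and 86.3 (-2.50 ± 0.48, adjusted p = 0.0403). They were the 2 genes called of 35 tested on a list of stress and immediate early genes, whose median log2 fold change was -0.17. In T cells Klf4 stood at 304 and 411 against 30.8 and 51.2, while in cDC2 it stood at 216 and 267 against 171 and 194. Without control skin replicate 2 neither gene was called (adjusted p = 0.226 for Fosb and 0.105 for Klf4), and without skin tumor replicate 1 Klf4 was not (0.0619). Over all 21 alternatives the call was lost in 4 for Fosb and in 7 for Klf4, whose log2 fold change ranged from -3.16 to -1.14.

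No heat shock gene of the same list was called, and those given here were chosen after their values were seen. The chaperone gene Hspa1a stood at 700 and 335 CPM in the controls and at 1972 and 2152 in the tumors (1.78, adjusted p = 0.063), and its near-identical copy Hspa1b at 603 and 335 against 1668 and 1973 (1.74, adjusted p = 0.0536), with reads that can be split between them. Hspb1, a small heat shock protein, stood at 37.5 and 3.10 against 143 and 173 (2.75, adjusted p = 0.103), and Dnaja1, a co-chaperone, at 339 and 195 against 890 and 795 (1.44, adjusted p = 0.0895). Both tumors were above both controls for each of them, while Hspa8, the most abundant gene of the list, overlapped between groups at 2915 and 2602 against 2865 and 3447 (-0.021, adjusted p = 0.981).

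**Figure D5:**
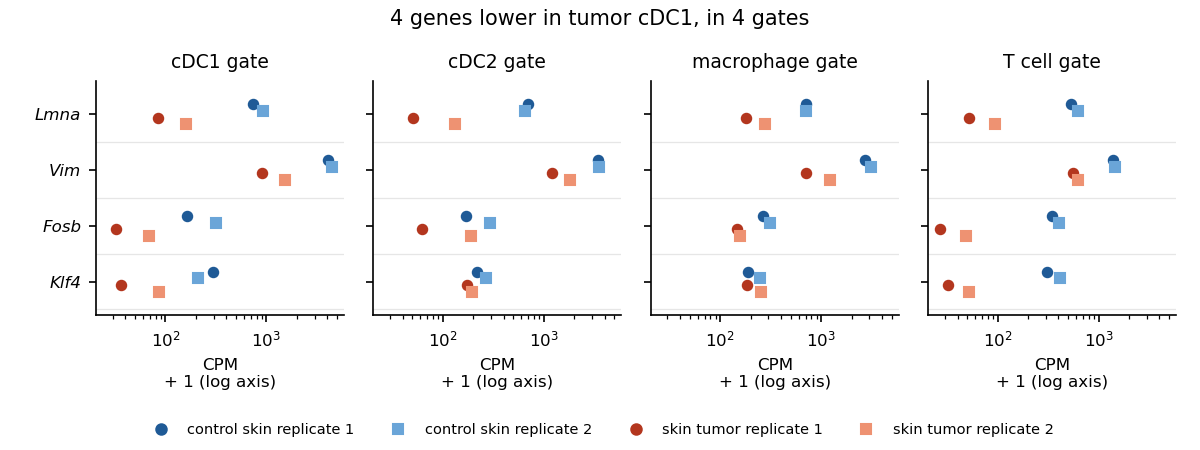
Levels in CPM plus 1 (log axis) per library of 4 genes lower in tumor cDC1, in the cDC1, cDC2, macrophage and T cell gates; Vim was chosen for display after its values were seen. Lmna lies lower in both tumors than in both controls in each of the 4 gates, and Klf4 does so by a wide margin in cDC1 and T cells.

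No gene on the lists of antigen presentation was called by edgeR. Over all tested genes 0.715% were called higher and 1.19% lower, so few calls or none would fall in lists of this size. Of 28 tested genes of MHC class I and cross-presentation, none was called at an adjusted p under 0.05 by edgeR, while 9 had an unadjusted p under 0.05 and DESeq2 called 1. Of the 28, 25 had a positive log2 fold change (median 0.55), beside 3142 of 6290 over all tested genes. Summed, this list stood at 7806 and 6483 CPM in the controls and at 12137 and 10327 in the tumors. B2m, the light chain of MHC class I, stood at 1480 and 1471 against 2226 and 1905 (0.27, adjusted p = 0.672) and H2-D1 at 1242 and 1205 against 1294 and 1332 (-0.11, adjusted p = 0.874). The groups of both genes did not overlap, but neither difference passed the test. For H2-D1 both tumors lay above both controls in CPM, which uses no scaling factors, while the fitted log2 fold change, which uses them, was negative. Psmb8, a subunit of the immunoproteasome, came nearest to the threshold at 364 and 299 against 1004 and 1085 (1.44, adjusted p = 0.0563).

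None of 15 MHC class II genes was called by edgeR or DESeq2, with 6 at an unadjusted p under 0.05 and a median of 0.0048. H2-Eb1 stood at 9652 and 8281 against 5748 and 5765 (-0.85, adjusted p = 0.217). By sign the list, which also holds cathepsin genes, was split, with 8 positive and 7 negative log2 fold changes. Cd74 (-0.77), H2-Aa (-0.90), H2-DMa (-1.08) and H2-DMb1 (-0.66) stood lower in both tumors than in both controls, as did H2-Eb1. H2-DMb2 (0.84) and H2-Oa (1.58) went the other way at lower levels. Summed, the list stood at 40123 and 34492 CPM in the controls and at 25975 and 24699 in the tumors.

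The identity genes of cDC1 were nearly even in direction. Of 29 tested, 13 had a positive and 16 a negative log2 fold change (median -0.016), with Cd8a higher and Cd207 and Hepacam2 lower. Irf8 (-0.016, adjusted p = 0.985) and Wdfy4 (0.12, adjusted p = 0.897) did not pass, and their control and tumor levels overlapped. Cadm1, an adhesion molecule of cDC1, stood at 864 and 1402 against 553 and 203 (-1.74, adjusted p = 0.105), and the RNA sensor Tlr3 at 21.4 and 1.55 against 115 and 18.5 (2.62, adjusted p = 0.192).

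Among other lists, costimulation and checkpoint genes had 1 of 19 higher (Pdcd1lg2; median -0.36), uptake receptors 1 of 21 higher (Axl) and 2 lower (Cd207 and Timd4; median 0.32), and chemokine receptors and adhesion genes 1 of 21 higher (Dpp4) and 1 lower (Gpr183; median -0.44). Maturation genes had 1 of 23 lower (Zmynd15; median 0.070) and cell cycle genes 1 of 15 higher (Ccnd2; median -0.33). No gene was called by edgeR among 9 cytokines, 11 sensors, 28 components of JAK-STAT signaling, 27 genes of glycolysis and hypoxia and 19 of cholesterol and lipid handling, with medians of 0.67, 0.84, -0.24, -0.14 and -0.00073. In that order, 3, 4, 10, 7 and 7 of them had an unadjusted p under 0.05, and DESeq2 called 1, 0, 1, 0 and 0. With 0.715% of all tested genes called higher and 1.19% lower, few calls or none would fall in lists of this size. The counts of the lists in this paragraph are thus not read as results about the lists. Il1b, the most abundant cytokine, stood at 177 and 105 against 358 and 1208 (2.23, adjusted p = 0.0916), and Jak2 at 477 and 644 against 473 and 432 (-0.52, adjusted p = 0.445).

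Markers of other cells were also found in the gate. The sum of 12 T cell markers was 521 and 65.0 CPM in the controls and 55.7 and 259 in the tumors, with Icos at 237 in control skin replicate 1, and none of 6 tested was called by edgeR or DESeq2 or had an unadjusted p under 0.05. Of 17 macrophage markers, led by Lyz2, the sum was 1466 and 2479 against 960 and 2059, and none of 13 tested was called by edgeR or DESeq2 (3 at an unadjusted p under 0.05). The 10 monocyte markers summed to 421 and 568 against 885 and 1104, with Ccr2 at 227 and 133 against 164 and 469 and Plac8 at 5.36 and 96 against 445 and 388, and Ly6i was called higher, at least 14.6-fold against a floor of 3 counts over the controls. Ly6i was the call among 5 tested. Plac8 itself did not pass (2.81, adjusted p = 0.118), Ly6c2 and Ccr2 overlapped between groups, and Gpr141 stood at 157 and 226 against 118 and 111 (-0.95, adjusted p = 0.214). The part of cells with monocyte genes in the interferon result was not tested beyond the receptor subsets above.

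The 11 cDC2 markers summed to 377 and 429 against 514 and 573, with Il1r2 the highest in the controls (132 and 153) and Mgl2 in skin tumor replicate 1 (153), and the 8 markers of plasmacytoid dendritic cells to 236 and 536 against 847 and 493. None of 7 and 5 tested was called by edgeR or DESeq2, with 1 of each list at an unadjusted p under 0.05 in edgeR. Markers of B cells summed to 51.8 and 46.5 against 195 and 43.2, of mast cells to 104 and 144 against 105 and 105, and of NK cells and ILC to 51.8 and 58.8 against 67.3 and 117. Markers of neutrophils, keratinocytes and fibroblasts summed to at most 18.5 in any library, and Klrb1c, Ncr1, Cxcr2, Ms4a2, Krt15, Krt5, Krt1, Col6a1 and Lum had no UMI in cDC1.

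The tumor effect in cDC1 was then set against that in cDC2, with each library as a block. Of 8987 genes, 37 (0.412%) had a higher and 37 (0.412%) a lower tumor effect in cDC1 at an adjusted p under 0.05, and 861 had an unadjusted p under 0.05. Irf8 and Wdfy4 were among them: in cDC2, Irf8 rose by 2.03 on the log2 scale in the tumors while it was level in cDC1, a difference of -2.09 ± 0.32 (adjusted p = 0.00773), and the difference for Wdfy4 was -2.20 ± 0.36 (adjusted p = 0.00841). In level, cDC1 remained above cDC2 for both genes in every library.

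Cxcl9 was nearly absent from control cDC2 (15.5 and 0.60 CPM) and present in tumor cDC2 (315 and 184), so its tumor effect was lower in cDC1 by 3.22 ± 0.53 (adjusted p = 0.0084). The Cxcl9 level of control cDC1 came mostly from a few cells, as given above, so this difference rests on them. Gpr183 fell in cDC1 and stood at 174 and 181 against 354 and 211 in cDC2, a difference of -3.27 ± 0.43 (adjusted p = 0.00296). In macrophages Gpr183 fell as well, from 325 and 165 to 79.0 and 50.2 (-2.08, edgeR adjusted p = 0.041). Its tumor effect in cDC1 differed from that by -0.95, which was not called. Frmd4b stood at 88.7 and 127 against 209 and 67.3 in cDC2, a difference of 4.61 ± 0.65 (adjusted p = 0.00424). The groups of Frmd4b overlapped in cDC2 and not in cDC1.

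Against macrophages, gated by complement genes and Csf1r, 32 of 10232 genes (0.313%) had a higher and 21 (0.205%) a lower tumor effect in cDC1, and 992 had an unadjusted p under 0.05. Bcl2a1b was higher by 3.99 ± 0.46 (adjusted p = 0.000751), its macrophage levels being 363 and 169 against 371 and 189. Zmynd15 was lower by 3.03 ± 0.50 (adjusted p = 0.0122) and Klf4 by 2.40 ± 0.45 (adjusted p = 0.0211). The macrophage gate of the controls carried Cd207 at 2332 and 999 CPM, so differences in Langerhans genes such as Cldn1 and Cacnb2 are not read. Without the library block edgeR called no gene in either comparison (601 and 897 at an unadjusted p under 0.05), and with equal numbers of cells 2 were called against cDC2 and 23 against macrophages.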

How the data were processed

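CD45+ cells of 4 samples were measured, and the authors deposited raw UMI counts, with a matrix of genes by cells for each library. The submitters' processing notes name Cell Ranger 7.1.0 and the build mm10, while the file headers name Cell Ranger 7.0.1. The handling of intronic reads is not given in the sources used here, and the deposited counts were whole numbers with no normalization. The values are counts on 31053 genes. Coordinates came from GENCODE vM21 (GRCm38).

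Cells were gated on raw UMIs as the report states, and UMIs of gated cells were summed per library. Skin tumor was compared with control skin by edgeR 4.0.16 (TMM factors, filterByExpr, quasi-likelihood test) with Benjamini-Hochberg adjustment over all tested genes and a threshold of 0.05. The tumor effect was compared between gates in a fit with the library as a block. Printed levels are CPM of UMIs without scaling factors, and standard errors were taken as the size of the log2 fold change divided by the root of the F statistic. DESeq2 1.42.0, other gates, thinning and leaving out each library were alternatives. Doublets were scored with a Scrublet-type method, which marked 471 of the kept cells (4 of them cDC1), and were left in except in that alternative. The tests were tested on simulated data.

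Named genes were Xcr1, Clec9a, Irf8 and Wdfy4, and the 12 called genes per direction with the largest change at a mean of at least 50 CPM. For these 12 per direction, both tumors also had to lie on the same side of both controls. That their groups stand apart was thus set by the choice. Also named were up to 4 called members per list (with none called, the 2 most abundant), Cxcl9, Cxcl10 and Dpp4. Up to 5 called genes per direction were named for each difference between gates. A few other genes are named for their known role, after their values were seen. The cells, the gene lists and the tests were chosen with earlier results of these data known. The labels do not say whether replicates came from separate animals, so p-values measure the spread between these samples. Shares carry Clopper-Pearson intervals of 95%. Some details and results are not reported here.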

Additional observations from a re-analysis of the deposited data

Results flagged for a closer look

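For 20 genes the tumor effect in cDC1 differed from that in another gate by the test of the difference itself, edgeR's quasi-likelihood test with the library as a block. They are the 5 called genes with the largest difference per direction and gate, given here on the log2 scale as the effect in cDC1 less that in the other gate. Against cDC2, the tumor effect in cDC1 was higher for Lpl (5.28), Hk3 (4.92), Cd300ld (4.83), Cxcl2 (4.61) and Frmd4b (4.61). It was lower for Siglech (-7.67), Grm8 (-7.59), Prnp (-6.61), Rab30 (-6.17) and Epcam (-4.70).

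Hk3, a hexokinase of myeloid cells, had 3 UMIs over both controls and 73 over both tumors in cDC1, and Frmd4b was also called in cDC1 alone. Lpl and Cd300ld had few UMIs in cDC1 (at most 6.17 and 30.8 CPM in a library), and Cxcl2 stood at 450 in skin tumor replicate 2 and at 6.47 to 10.7 in the other libraries, so that its groups overlapped. Siglech and Grm8 had no UMI in cDC2 of the controls and 73 and 39 UMIs in cDC2 of skin tumor replicate 1, and their levels in cDC1 overlapped between groups. The difference in Epcam is bound to the cDC2 gate, which limits Cd207 and Epcam.

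Against macrophages, the tumor effect in cDC1 was higher for Ly6d (10.5), Scin (8.52), Ccl17 (7.79), Cd209d (7.67) and Ccser1 (6.31). It was lower for Tlr12 (-6.29), Htr7 (-4.97), Cd38 (-4.08), Lyz1 (-3.71) and Dst (-3.49). In cDC1 the groups overlapped for Ly6d, Scin, Ccl17 and Cd209d, and Ly6d, a marker of plasmacytoid dendritic cells, and Ccl17 had no UMI in skin tumor replicate 2, while all 4 genes were lower in macrophages of skin tumor replicate 1 than in those of either control. Ccser1 stood at 187 and 187 CPM in control cDC1 and at 217 and 228 in tumor cDC1, so its difference came from macrophages, where it fell by 5.76 on the log2 scale (adjusted p = 0.0445). Htr7, a serotonin receptor, stood at 141 and 282 against 333 and 395 in cDC1 and rose by 5.35 in macrophages (adjusted p = 0.00743). Lyz1 and Dst were called lower in cDC1 and not in macrophages. All of these calls were lost without the library block.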

How the results depend on the processing

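The 120 calls became 125 with DESeq2 (91 of them shared), 118 with RLE factors, 515 with no filter, 15 when libraries were thinned to the smallest sum, 991 with no limits on other genes in the gate, 65 with cells holding Epcam left out, 15 with cells holding cDC2 genes left out and 75 with cells holding T cell genes left out, the last 2 chosen after seeing the data. No factors gave 121 calls (66 higher, 55 lower). Leaving out a library gave 33 to 659 calls, the lone sample being assumed to vary like the others. Of the 120 called genes, 65 to 120 were tested in each setting, and none of those changed sign. Which cells and libraries set the low counts beyond fewer genes and cells was not tested.

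The replicate numbers do not pair the samples (correlation of same-numbered deviations -0.019 over 6290 genes), and a fit with the replicate block called 89 genes (32 higher, 57 lower), of which 74 were shared.

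The difference in share of kept cells (-0.060 percentage points) turned to 0.078 with at least 1 UMI of Xcr1 and Clec9a, and ranged from -0.50 (without skin tumor replicate 1) to 0.38 (without skin tumor replicate 2), being 0.0085 without control skin replicate 2. The share of dendritic cells ranged from -13.3 to 3.63 (without skin tumor replicate 2). The difference of the tumor effect was called for 74 genes against cDC2 and for 0 with no library block, 207 with no filter, 2 with equal cell numbers and 60 to 145 when a library was left out. Against macrophages, 53 became 0, 232 and 23 in these settings, 82 with RLE factors and 82 to 201 when a library was left out. Irf8 (-0.016) turned to 0.22 with no factors, 0.16 thinned, 0.11 with both receptors required, 0.14 with at least 4 receptor UMIs, 0.23 without Epcam cells, 0.064 without scored doublets and 0.27 without cells holding cDC2 genes, and ranged from -0.21 to 0.087 when a library was left out (0.074 without skin tumor replicate 2). Wdfy4 ranged from -0.50 to 0.49 when a library was left out, with -0.048 without control skin replicate 2. With 162193 UMIs in the smallest sum, genes at low levels in skin tumor replicate 2 had few counts.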

Other observations

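The Y-linked gene Uty was found in cDC1 of all 4 libraries, at 94.6 and 177 CPM in the controls and 63.4 and 166 in the tumors, while Xist had no UMI in any of them. None of 3 tested sex-linked genes was called by edgeR or DESeq2, or had an unadjusted p under 0.05. Clec9a had at least 1 UMI in all 62 and all 8 cDC1 of the tumors, and in 24 of 26 and 30 of 31 cDC1 of the controls.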
